A study of Mus musculus with 8 samples.

Results

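The genes described here are 10 rapidly induced feedback inhibitors: the MAP kinase phosphatases Dusp1 and Dusp6, the Sprouty genes Spry2 and Spry4, the pseudokinase gene Trib1, the antiproliferative gene Btg2, the mRNA decay gene Zfp36, and Ier2, Ier3 and Gadd45b. They were taken by symbol, and all 10 were found among the 24942 genes of the deposited table. Btg2 and Trib1 were picked for lower values in NPC1-deficient libraries, so their genotype difference is given as a description without a test. The other 8 were chosen by function, but with earlier results of these data known. Shares over all genes are given beside them as a description. RNA came from retinal ganglion cells, the neurons whose axons form the optic nerve, of mice at postnatal day 8. Each genotype, NPC1-deficient and wildtype littermate, had 4 libraries, both on the BALB/cNctr-Npc1m1N/J background, and neither group received any treatment that the labels name. The Npc1m1N allele is carried in the germline, so NPC1 is lacking in every cell of the eye and not in ganglion cells alone. The cells were caught on antibody-coated plates (immunopanning) and lysed there without culture. The labels do not say how many animals a library holds, so p-values measure the spread between these libraries, which may be technical in part. Sex-linked transcripts, given below, differed between wildtype libraries, so these did not all hold RNA of the same animals.

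Growth factors, synaptic activity and cell stress switch on immediate early genes within minutes, mainly through MAP kinases. Among the early transcripts are inhibitors that end the response: dual-specificity phosphatases remove phosphate from MAP kinases, Sprouty proteins dampen signaling from receptor tyrosine kinases to RAS, and ZFP36 binds AU-rich elements in mRNA and brings in the enzymes that shorten the poly(A) tail. In neurons these genes follow electrical activity and also handling of the tissue, since dissociation is itself a stimulus.

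Npc1, the lysosomal cholesterol exporter, was read first as a check of the labels. Its normalized read count, a read count divided by the size factor of the library, lay between 707 and 857 in wildtype and between 66.1 and 139.8 in NPC1-deficient libraries, a mean of 10.9% (limma adjusted p = 3.23e-05; exact two-sided permutation p = 0.0286, the smallest that 70 assignments allow). One label field goes against these levels: it names the first pair of libraries in each genotype (1 and 2) wildtype and the other pair (3 and 4) homozygous. Groups follow the titles. Library totals ran from 33030175 to 44050118 reads. All 10 ganglion cell markers were detected. Their summed level was 340537 to 361487 in the wildtype group and 362757 to 393410 in the NPC1-deficient group, without overlap. Of these markers 8 were higher and 2 lower in the NPC1-deficient group, with a median log2 fold change of 0.07. Limma, edgeR and DESeq2 called 0 of the 10. Markers of other cells were present too. The sum of 14 microglial markers was 3719 to 15241 in the wildtype group and 2673 to 4328 in the NPC1-deficient group, that of 10 rod markers 3370 to 8721 and 1960 to 2789, and that of 6 amacrine markers 2437 to 4647 and 1401 to 2090. The sum of 6 bipolar markers was 1792 to 2295 and 1522 to 1848, and that of 5 endothelial markers 299.7 to 528 and 221 to 299.4. Every tested marker of these 5 lists had a negative log2 fold change, with medians of -1.47, -1.07, -1.54, -0.87 and -0.21 in that order. The sums of rods and amacrine cells did not overlap between groups. Those of endothelial cells nearly met, at 299.7 in wildtype against 299.4. Adjusted over all genes tested, limma and edgeR called 0 of these markers. DESeq2 called 7 of the 14 microglial, 3 of the 10 rod, 3 of the 6 amacrine, 0 of the 6 bipolar and 1 of the 5 endothelial markers. At an unadjusted limma p under 0.05 there were 13, 8, 4, 3 and 1. No marker of these lists was at 0 in every library. Other lists were not all lower. Of the tested pericyte and fibroblast markers 1 was lower and 2 higher, with a median of 0.37. Of those of Mueller glia and astrocytes 4 were lower and 1 higher, with a median of -0.11. All 3 tested cone markers were lower, with a median of -0.37. Limma and edgeR called 0 of these, and DESeq2 called 1, in the Mueller glia and astrocyte list. In bulk RNA, fewer cells of a type and less RNA per cell cannot be told apart. Xist is the transcript that silences an X chromosome in female cells. It ranged from 18.2 to 595 in the wildtype group, highest in wildtype 1. In the NPC1-deficient group it ranged from 0 to 68.1, where a 0 allows up to 3 reads. The summed level of Y chromosome transcripts, which mark male cells, was 45.6 in wildtype 1 and 3093 in wildtype 2. It was 1241 in wildtype 3, 1508 in wildtype 4 and 2597 to 3788 in the NPC1-deficient group. By both measures wildtype 1 was the most female library, and the groups differed in their mix of sexes. In what follows, the values of a gene are listed in the order of libraries 1 to 4.

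Per kilobase of exonic length, a scale that allows a rough comparison of genes, Dusp1 and Ier3 were the most abundant of the 10 in wildtype, with 512 ± 20.7 and 502 ± 25.0 normalized reads (SD, n = 4). The length joins the exons of all annotated transcripts. Ier2 followed with 374 ± 53.6 and Btg2 with 339 ± 47.5. Dusp6 stood at 237 ± 36.8 and Spry2 at 148 ± 13.4. The lowest were Zfp36 at 113 ± 64.4, Spry4 at 94.4 ± 20.05, Trib1 at 66.5 ± 9.13 and Gadd45b at 58.8 ± 13.7. For Zfp36 the joined exons cover all 3470 bases of the gene, though its principal transcript has 2 exons, so its value and place may be too low. The SD ranges of Ier3 and Ier2, of Btg2 and Dusp6, and of Dusp6 and Spry2 did not overlap, while those of all other neighbours in this order did. In NPC1-deficient libraries Ier3, at 481 ± 45.5 per kilobase, stood above Dusp1 at 416 ± 16.8, and Trib1 and Gadd45b were again lowest at 40.3 ± 1.86 and 37.2 ± 7.42.

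Of the 10 genes, 9 had a lower log2 mean in NPC1-deficient than in wildtype libraries, the exception being Spry4. Without the picked Btg2 and Trib1 it was 7 of the 8, against 48% of all genes tested. Among these 7, Spry2 (-0.10, SE 0.10) and Ier3 (-0.07, SE 0.08) lay near 0. The groups did not overlap in 5 of the 10 (Btg2, Trib1, Dusp1, Dusp6 and Ier2), or in 3 of the 8 chosen by function, always with NPC1-deficient lower. Of all 15386 genes tested, 2.41% showed such a gap downward and 1.86% upward. The median log2 fold change came to -0.38 over the 8, against 0.0050 over all genes tested, and to -0.53 with the picked Btg2 and Trib1. None of the 8 passed the limma test adjusted over all genes, where 0.065% of genes passed as lower, 0.039% as higher and 0.104% in either direction. None passed with edgeR either, where 0.065% of genes passed as lower and 0.104% in either direction. At an unadjusted limma p under 0.05 there were 5 of the 8, all lower, against 4.37% of all genes lower and 6.76% in either direction. DESeq2 on recovered reads called 3 of the 8 (Dusp1, Dusp6 and Ier2), where it called 1.29% of all genes lower and 1.6% in either direction. The plot of the 10 genes by library shows these values.

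**Figure D1:**
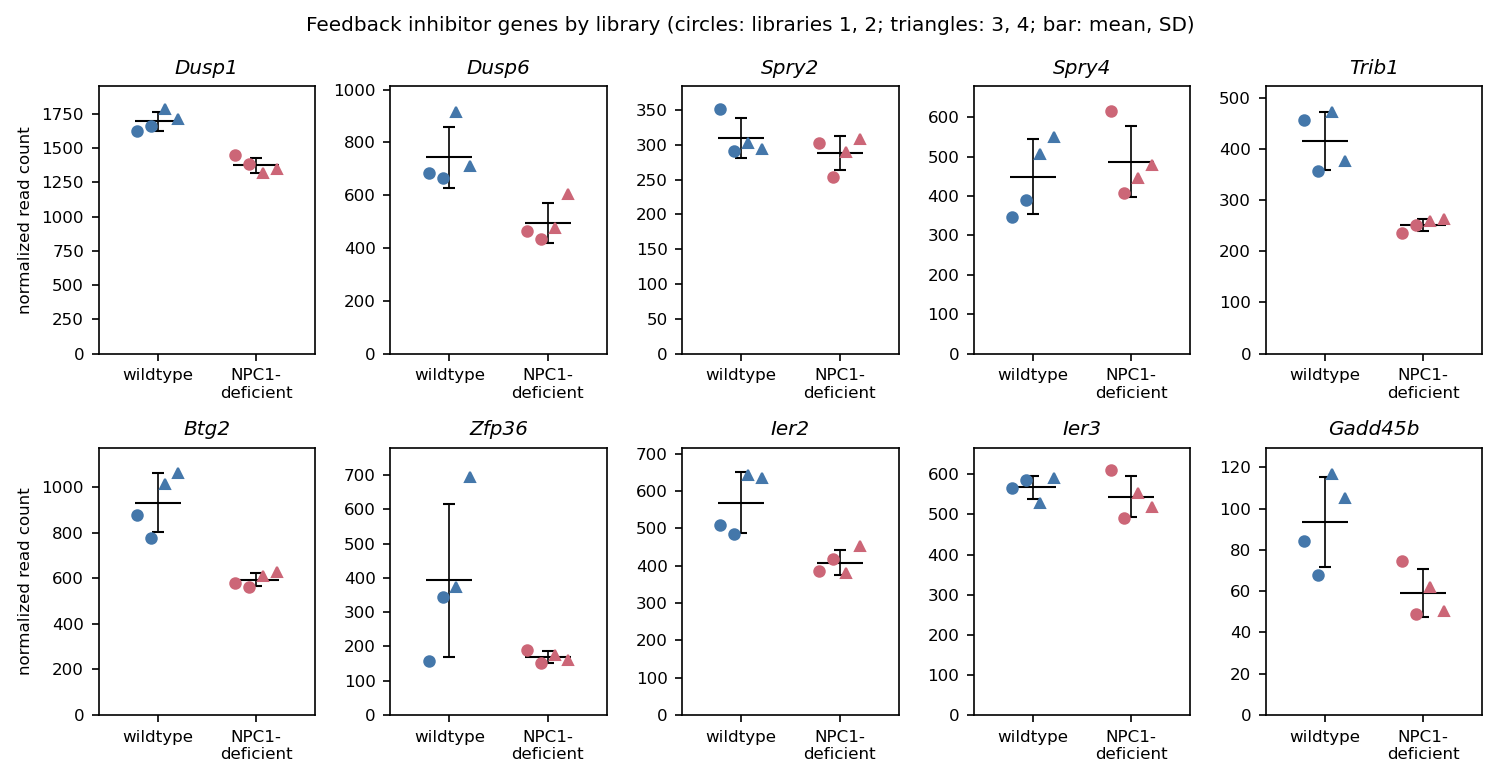
Normalized read count (vertical axes, from 0) of each of the 10 genes in the 4 wildtype and 4 NPC1-deficient libraries, with libraries 1 and 2 as circles, libraries 3 and 4 as triangles, and the mean and SD of each group in black. Btg2, Trib1, Dusp1, Dusp6 and Ier2 have no overlap between groups, and Zfp36 is spread from 157 to 695 in wildtype alone.

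The 10 genes share a compact structure that did not enter their choice. Their principal transcripts span a median of 3710.5 bases with 2 exons, from 1 exon in Ier2 to 4 in Dusp1 and Gadd45b, where the median over 13884 protein-coding genes tested is 23017.5 bases and 9 exons. All 10 were shorter than that median. AU-rich elements, the target of ZFP36, were counted as the heptamer TATTTAT in the 3' untranslated region of the transcript strand. It occurred in 6 of the 10 against 28.9% of 13707 genes with such a region, and at least 2 copies, which may share bases, in 5 of the 10 (Ier3, Spry4, Dusp1, Zfp36 and Spry2) against 10.4%. Ier3 and Spry4 held 4 copies, Dusp1 and Zfp36 held 3, Spry2 held 2 and Btg2 held 1. Trib1, Ier2, Dusp6 and Gadd45b held 0. The genes with 2 or more copies include the nearly even Ier3 and Spry2 as well as Dusp1 and Zfp36. The stretches of 30 bases printed next, from GENCODE M21 transcripts, hold the densest ATTTA pentamers of these regions, shown for the nearly even Ier3 (chr17:35822485-35822514, plus strand), for Dusp1 (chr17:26506156-26506185, minus strand), for Zfp36 (chr7:28376958-28376987, minus strand) and for Btg2 (chr1:134076017-134076046, minus strand), with the pentamers in capitals.
Ier3: taattaatATTTAtgtATTTAtgtatatcc
Dusp1: gctggtccttATTTATTTAacacccccctc
Zfp36: cctttATTTAtgacgactttATTTAttgta
Btg2: aATTTAtttgtagatgtgtgcaatATTTAc

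Promoters of 7 of the 10 genes (Btg2, Zfp36, Gadd45b, Dusp6, Spry2, Dusp1 and Ier3) were matched in RefSeq on GRCm38.p6, and Trib1, Ier2 and Spry4 were not. The 250 bases before the start were searched on both strands. The full cAMP response element TGACGTCA, which CREB binds, was in Btg2 at 166 and in Dusp1 at 143 bases before the start, and in 1.55% of all 32851 promoters. Each full element contains the 5-base core TGACG on both strands, and Dusp1 held a further core at 191 bases; 17.8% of all promoters hold a core. A CArG box, the site of serum response factor, was in Zfp36 at 58 bases and in 1.47% of all promoters. The EGR site GCGNGGGCG was in Btg2, Zfp36 and Gadd45b and in 4.70% of all promoters. The E box CACGTG was in Gadd45b and Dusp1 and in 6.02%, and an NF-kB site was in Ier3 on the opposite strand and in 7.25%. The TATA box TATAAA was in Gadd45b and in 12.4%. The AP-1 site TGANTCA was in 0 of the 7 and in 6.75% of all promoters, and Dusp6 and Spry2 held none of these letters in this window. The GC box GGGCGG, which can share bases with the EGR site, was in 5 of the 7 and in 32.7%. Of the genes shown, Btg2, chr1:134079156-134079405 (minus strand), and Dusp1, chr17:26508473-26508722 (minus strand), had groups without overlap and carry the full element. Zfp36, chr7:28379229-28379478 (minus strand), and Gadd45b, chr10:80929841-80930090 (plus strand), overlapped in 1 or more libraries, and Ier3, chr17:35821463-35821712 (plus strand), was nearly even. Dusp6, not shown, also had groups without overlap but held no element, and Trib1 and Ier2, likewise without overlap, were not matched. Btg2 was picked for lower values. A link between these elements and the genotype difference was not tested. Capitals mark the elements named here other than the GC box.
Btg2: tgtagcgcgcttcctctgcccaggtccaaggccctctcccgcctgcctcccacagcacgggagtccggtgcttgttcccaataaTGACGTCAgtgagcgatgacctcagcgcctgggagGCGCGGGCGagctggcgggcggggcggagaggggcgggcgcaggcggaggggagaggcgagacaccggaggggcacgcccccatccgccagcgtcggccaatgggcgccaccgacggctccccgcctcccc
Dusp1: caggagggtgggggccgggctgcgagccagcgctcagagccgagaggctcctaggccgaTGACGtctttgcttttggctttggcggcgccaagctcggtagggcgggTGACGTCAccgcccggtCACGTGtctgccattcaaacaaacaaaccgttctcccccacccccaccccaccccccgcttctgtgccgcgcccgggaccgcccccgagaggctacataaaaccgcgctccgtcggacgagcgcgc
Zfp36: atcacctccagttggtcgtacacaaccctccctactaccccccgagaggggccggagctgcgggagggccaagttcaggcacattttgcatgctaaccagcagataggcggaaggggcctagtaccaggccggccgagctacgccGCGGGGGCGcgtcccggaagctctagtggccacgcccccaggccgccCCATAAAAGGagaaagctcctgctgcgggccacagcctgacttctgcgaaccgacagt
Gadd45b: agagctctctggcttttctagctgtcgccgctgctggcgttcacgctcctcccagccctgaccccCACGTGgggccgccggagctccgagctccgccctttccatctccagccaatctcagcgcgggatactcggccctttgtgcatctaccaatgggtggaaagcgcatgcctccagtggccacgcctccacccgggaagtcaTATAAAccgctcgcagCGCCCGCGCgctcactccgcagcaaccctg
Ier3: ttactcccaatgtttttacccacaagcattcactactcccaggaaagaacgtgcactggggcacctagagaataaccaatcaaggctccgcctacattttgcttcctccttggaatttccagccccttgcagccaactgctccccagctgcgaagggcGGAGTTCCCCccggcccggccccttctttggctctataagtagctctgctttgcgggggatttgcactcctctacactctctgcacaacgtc

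Dusp1, a nuclear phosphatase that acts on p38, JNK and ERK, had normalized counts of 1629, 1661, 1786 and 1710 in the wildtype group and 1451, 1383, 1322 and 1349 in the NPC1-deficient group (ENSMUSG00000024190, chromosome 17, 26505590 to 26562128, minus strand, GENCODE M21 on the mm10 build). Every NPC1-deficient library lay below the lowest wildtype library. The difference was -0.30 on the log2 scale of value + 1 (SE 0.06, limma adjusted p = 0.0679), which did not pass at 0.05. The means were 1697 ± 68.5 and 1376 ± 55.7 (SD, n = 4). It was the steadiest of the 10, with a coefficient of variation of 4.04% in wildtype where counting alone gives 2.41%. Dusp1 passed without wildtype 1 (limma adjusted p = 0.0359), where 144 genes passed over all genes against 16 with all libraries. It did not pass when any other single library was left out.

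Dusp6, a cytoplasmic phosphatase specific for ERK, had 685, 664, 914 and 710 normalized reads in wildtype libraries and 463, 434, 475 and 604 in the NPC1-deficient group (ENSMUSG00000019960, chromosome 10, 99263231 to 99267489, plus strand). The groups did not overlap, although NPC1-deficient 4 came near wildtype 2, and the means were 743 ± 115 and 494 ± 75.3 (SD, n = 4). The log2 fold change came to -0.59 (SE 0.12, limma adjusted p = 0.0822), and without NPC1-deficient 4 it was -0.69 and passed (limma adjusted p = 0.0407). In that setting 33 genes passed over all genes, against 16 with all libraries. Leaving out any other single library did not make Dusp6 pass. Among 8 tested genes of other MAP kinase phosphatases, 6 were lower and 2 higher with a median log2 fold change of -0.19. Of these limma, edgeR and DESeq2 called 0, with 1 at an unadjusted limma p under 0.05. Dusp5, a nuclear ERK phosphatase, had 701 to 899 in the wildtype group and 601 to 698 in the NPC1-deficient group, with a log2 fold change of -0.21 (SE 0.09, limma adjusted p = 0.685). Dusp16 had a log2 fold change of -0.20 and Dusp2 one of -0.19. The median of these phosphatases stood at 0.0068 within libraries 3 and 4, against -0.30 in libraries 1 and 2.

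Neither Sprouty gene separated the groups. Spry2 had 351, 291, 303 and 294 normalized reads in wildtype libraries and 302, 253, 289 and 309 in the NPC1-deficient group (ENSMUSG00000022114, chromosome 14, 105891947 to 105896819, minus strand). The groups overlapped, and the log2 fold change came to -0.10 (SE 0.10, limma adjusted p = 0.983). Spry4 had 348, 391, 507 and 550 in the wildtype group and 616, 408, 447 and 478 in the NPC1-deficient group (ENSMUSG00000024427, chromosome 18, 38586247 to 38601415, minus strand). Its log2 fold change came to 0.13 (SE 0.16, limma adjusted p = 0.995), but the direction depended on the libraries. In libraries 1 and 2 both NPC1-deficient values were above both wildtype values, a difference of 0.44, and in libraries 3 and 4 both were below, a difference of -0.19. The difference between these 2 effects was -0.64 (SE 0.23, limma adjusted p = 0.263) and did not pass over all genes. Such a reversal without overlap was common, at 10.3% of all genes tested. Without NPC1-deficient 2 the difference was -0.93 (limma adjusted p = 0.0316), and without NPC1-deficient 1 it was -0.34 (limma adjusted p = 0.436).

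Of 7 other genes that restrain receptor tyrosine kinases, 4 were lower and 3 higher, with a median log2 fold change of -0.0061. Limma and edgeR called 0 of them and DESeq2 called 1, with 2 at an unadjusted limma p under 0.05. Spry1, the third Sprouty gene of the table, had a low level of 80.9, 85.8, 98.8 and 95.1 in the wildtype group and 49.0, 56.0, 48.0 and 65.1 in the NPC1-deficient group. Its groups did not overlap, and the log2 fold change came to -0.72 (SE 0.15, limma adjusted p = 0.0904). It was the gene that DESeq2 called (adjusted p = 0.0153). Errfi1, an inhibitor of the EGF receptor, had a log2 fold change of -0.17 and Lrig1, which lowers receptor levels, one of 0.22.

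Trib1 encodes a pseudokinase that brings targets to the ubiquitin ligase COP1. It had 456, 357, 472 and 376 normalized reads in wildtype libraries and 236, 251, 258 and 262 in the NPC1-deficient group (ENSMUSG00000032501, chromosome 15, 59648350 to 59657099, plus strand). The NPC1-deficient libraries lay between 236 and 262 and averaged 60.7% of wildtype, a log2 fold change of -0.71 (SE 0.10). The difference was nearly equal in both sets, at -0.73 for libraries 1 and 2 and -0.69 for libraries 3 and 4. Trib1 is a gene picked for this contrast, and so is Btg2, which encodes a protein that recruits deadenylase and slows the cell cycle. Btg2 had 877, 774, 1013 and 1060 in the wildtype group and 578, 563, 609 and 626 in the NPC1-deficient group (ENSMUSG00000020423, chromosome 1, 134075170 to 134079120, minus strand). It averaged 63.8% of wildtype, a log2 fold change of -0.64 (SE 0.10), with -0.53 within libraries 1 and 2 and -0.75 within libraries 3 and 4. In both genes the wildtype libraries were more spread than the NPC1-deficient ones. The coefficient of variation of Btg2 was 13.99% in wildtype and 4.796% in NPC1-deficient libraries, where counting alone gives 3.24% and 4.11%. That of Trib1 was 13.7% and 4.61%, where counting gives 4.88% and 6.32%. Ier2 (14.4% and 8.19%) and Zfp36 (56.9% and 9.98%) were also more spread in wildtype, while Ier3 (4.97% and 9.45%) was less so. Btg2 and Trib1 were picked on these same values.

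Of the 6 genes tested among the other Tribbles and BTG/TOB genes, 5 were lower and 1 higher, with a median log2 fold change of -0.22. None was called by limma, edgeR or DESeq2, and 2 had an unadjusted limma p under 0.05. Tob2, an antiproliferative relative of Btg2, had a log2 fold change of -0.33, Trib3, which responds to amino acid stress, one of -0.24, and Btg1 one of -0.20. The profiles nearest to Btg2 over the 8 libraries, by the root mean square difference of centred log2 values among 11215 genes with a mean of at least 100, were those of Egr1 (0.0669), Mbd6 (0.107) and Rapsn (0.130). Nearest to Trib1 were Pcp4l1 (0.0987), Fam84b (0.120) and Mbd6 (0.123). This distance includes the genotype gap for which Btg2 and Trib1 were picked. The search itself therefore favours genes that are lower in the NPC1-deficient group, as all of these neighbours were. Egr1, an activity-induced zinc finger factor, had 2154, 1807, 2434 and 2540 in the wildtype group and 1511, 1478, 1525 and 1676 in the NPC1-deficient group. In both Egr1 and Btg2 wildtype 2 was the lowest and wildtype 4 the highest of the wildtype libraries.

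Zfp36 encodes tristetraprolin, which marks AU-rich mRNAs for decay. It had 157, 344, 374 and 695 normalized reads in wildtype libraries and 190, 152, 176 and 159 in the NPC1-deficient group (ENSMUSG00000044786, chromosome 7, 28376784 to 28380253, minus strand). Wildtype 1 lay among the NPC1-deficient libraries, and the other wildtype libraries were all higher. The log2 fold change came to -1.03 (SE 0.32, limma adjusted p = 0.335), with -0.45 for libraries 1 and 2 against -1.60 for libraries 3 and 4. Without wildtype 1 it was -1.40 and passed (limma adjusted p = 0.00783), where 144 genes passed over all genes against 16 with all libraries. Leaving out any other single library did not make Zfp36 pass. The wildtype coefficient of variation was 56.9% against 4.92% from counting, and that of the NPC1-deficient libraries 9.98% against 7.69%. Of the exonic length of Zfp36, 3.60% is shared with Gm44710 on the opposite strand, and the library kit does not mark strand.

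The summed level of the 14 microglial markers moved in part with Zfp36. It was 3719, 10221, 8778 and 15241 in the wildtype group and 4328, 3968, 4120 and 2673 in the NPC1-deficient group. Both quantities were lowest in wildtype 1 and highest in wildtype 4 among the wildtype libraries. The part of the microglial level in the Zfp36 difference was not tested. The sum of rod markers was highest in wildtype 1, at 8721. The amacrine sum was highest in wildtype 3 of the wildtype libraries and rose from NPC1-deficient 1 to 4, and so did Trib1. Wildtype 1, without which Dusp1 and Zfp36 passed, also had the highest Xist and the lowest sum of Y chromosome transcripts. The part of microglia, rods, amacrine, bipolar, endothelial and other cells and of sex in the differences of the 10 genes was not tested.

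**Figure D2:**
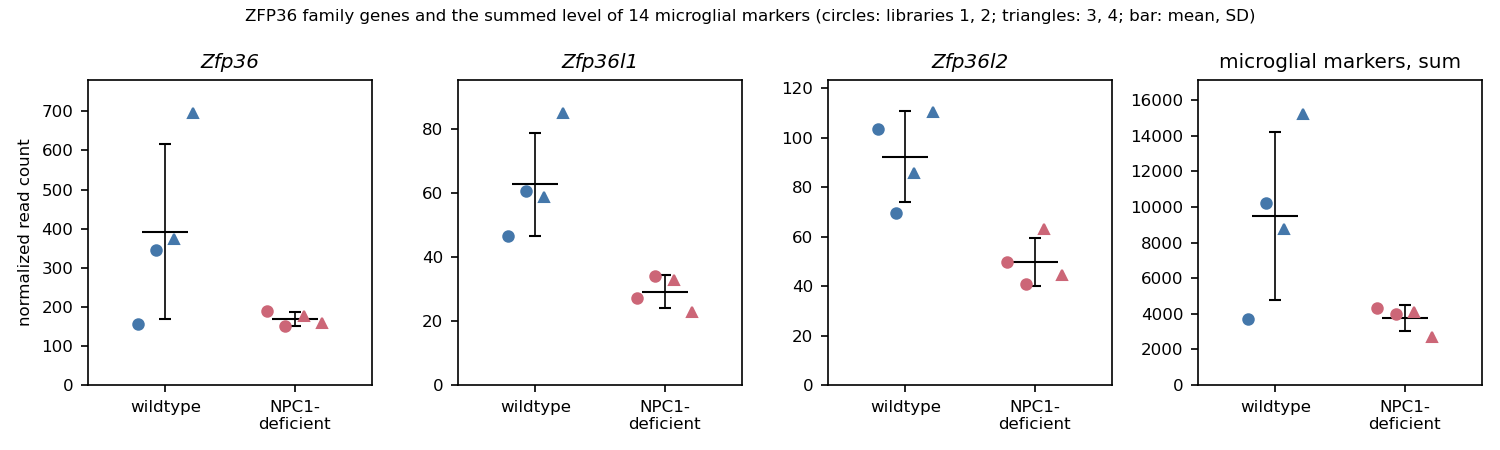
Normalized read count (vertical axes, from 0) of Zfp36, Zfp36l1 and Zfp36l2 and the summed normalized count of 14 microglial markers in 4 wildtype and 4 NPC1-deficient libraries, with libraries 1 and 2 as circles, libraries 3 and 4 as triangles, and the mean and SD in black. Zfp36, Zfp36l1 and the microglial sum are each lowest in wildtype 1 and highest in wildtype 4 of the wildtype libraries. The groups do not overlap for Zfp36l1 and Zfp36l2.

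The relatives of Zfp36 were low in these libraries. Zfp36l1 had 46.7, 60.5, 58.7 and 85.2 normalized reads in wildtype libraries and 27.2, 34.02, 32.7 and 22.7 in the NPC1-deficient group, a log2 fold change of -1.06 (SE 0.22, limma adjusted p = 0.0796). Zfp36l2 had 103.7, 69.6, 85.8 and 110.3 in the wildtype group and 49.9, 41.0, 63.2 and 44.4 in the NPC1-deficient group, a log2 fold change of -0.88 (SE 0.19, limma adjusted p = 0.0977). Neither gene overlapped between groups, and DESeq2 called both (adjusted p = 0.00542 and 0.00753). The list that holds these genes and the CCR4-NOT deadenylase, the complex that removes poly(A) tails, had 6 genes lower and 7 higher of 13 tested, with a median log2 fold change of 0.0001. In it limma and edgeR called 0 genes, DESeq2 called these 2, and 3 had an unadjusted limma p under 0.05. Cnot10, a subunit of that complex, had a log2 fold change of -0.14 (SE 0.06, limma adjusted p = 0.685).

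Ier2, a small nuclear protein induced by growth factors, had 511, 486, 642 and 635 normalized reads in wildtype libraries and 386, 417, 379 and 452 in the NPC1-deficient group (ENSMUSG00000053560, chromosome 8, 84661331 to 84662852, minus strand). The groups did not overlap, and the log2 fold change came to -0.47 (SE 0.11, limma adjusted p = 0.110). Ier3, a stress-induced protein that modulates ERK and NF-kB signaling, had 567, 585, 529 and 591 in the wildtype group and 612, 492, 553 and 519 in the NPC1-deficient group (ENSMUSG00000003541, chromosome 17, 35821684 to 35822923, plus strand). It was close to even, with a log2 fold change of -0.07 (SE 0.08, limma adjusted p = 0.995) and a wildtype coefficient of variation of 4.97% against 4.17% from counting. Gadd45b, a stress protein that binds the MAP kinase kinase kinase MTK1, was the lowest of the 10, with 84.4, 67.6, 116.5 and 105.0 in the wildtype group and 74.4, 49.0, 62.1 and 50.6 in the NPC1-deficient group (ENSMUSG00000015312, chromosome 10, 80930073 to 80932204, plus strand). Only wildtype 2 and NPC1-deficient 1 crossed. Its log2 fold change came to -0.64 (SE 0.20, limma adjusted p = 0.317) from 49 to 125 reads a library, where counting gives a coefficient of variation of 10.2% in wildtype. Of the 4 other GADD45 and IER genes, 2 were lower and 2 higher, the median log2 fold change came to -0.04, and limma, edgeR and DESeq2 called 0, with 0 at an unadjusted limma p under 0.05. Ier5 stood at -0.09, Gadd45g at -0.09 and Ier5l at 0.06.

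Wildtype libraries 3 and 4 stood apart from wildtype 1 and 2 in most of these genes. In 7 of the 10 (Btg2, Ier2, Dusp1, Dusp6, Spry4, Zfp36 and Gadd45b) both were above both of libraries 1 and 2, and in 0 of the 10 both were below, against 19.3% and 19.7% of all genes tested. In NPC1-deficient libraries the same order held for 3 of the 10 (Btg2, Trib1 and Dusp6) and the opposite for 1 (Dusp1), against 27.1% and 27.5% of all genes. For the 8 genes chosen by function the median log2 fold change stood at -0.26 in libraries 1 and 2 and at -0.49 in libraries 3 and 4, against 0.0010 and 0.0008 over all genes. With Btg2 and Trib1, which were picked for lower values, it stood at -0.31 and -0.61. None of the 10 passed the test of this difference over all genes, which 0.078% of genes passed. At an unadjusted p under 0.05 there were 2, Spry4 and Zfp36, against 13.4% of all genes, and edgeR and DESeq2 called 0 of the 10. The difference for Zfp36 was -1.15 (SE 0.46, limma adjusted p = 0.312), that for Gadd45b -0.65 (SE 0.35, limma adjusted p = 0.457) and that for Dusp6 0.0015 (SE 0.19, limma adjusted p = 0.999).

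**Figure D3:**
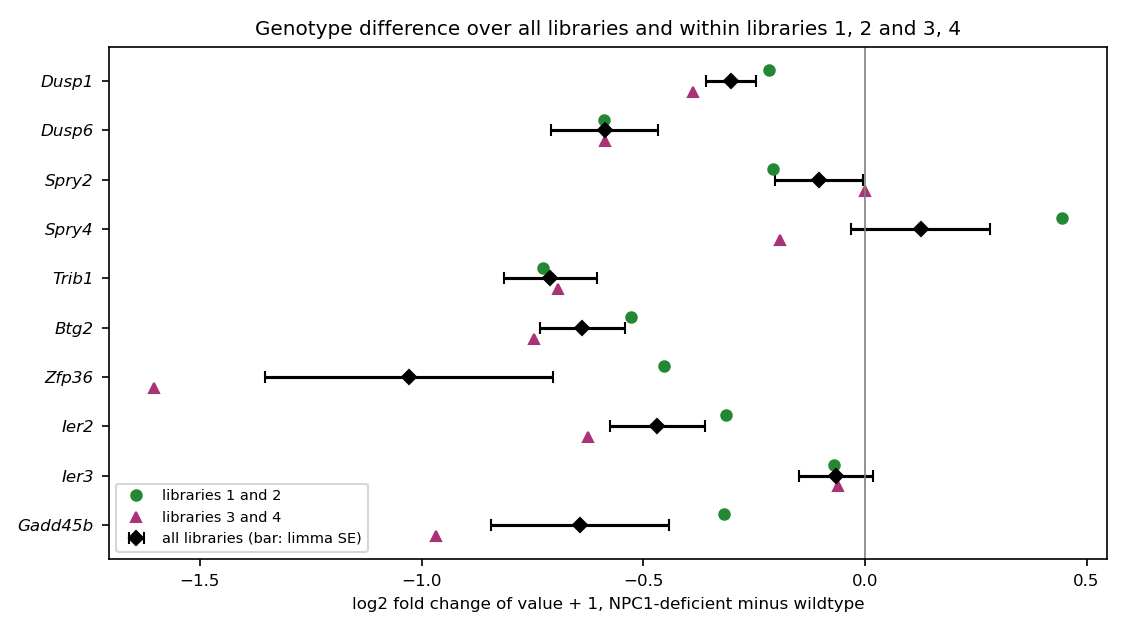
Log2 fold change of value + 1, NPC1-deficient minus wildtype (horizontal axis), for each of the 10 genes over all libraries (diamond with the limma SE), within libraries 1 and 2 (circle) and within libraries 3 and 4 (triangle). Trib1, Dusp6 and Ier3 are nearly equal in both, Zfp36 runs from -0.45 to -1.60, and Spry4 changes sign from 0.44 to -0.19.

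Transcript levels of the MAP kinase cascade were nearly even between groups. The activity of its kinases was not measured. Of 25 genes of the RAS and MAP kinase cascade, which the feedback inhibitors act on, 12 were lower and 13 higher, with a median log2 fold change of 0.0042. All 3 tools called 0 of them, and 0 had an unadjusted limma p under 0.05. The groups did not overlap in 1 of the 25, with NPC1-deficient lower, as in 2.41% of all genes tested. Map2k7, a kinase of the JNK branch, had -0.12, Map3k1 -0.29 and Sos2, an activator of RAS, 0.18 on the log2 scale. Of 10 genes known as ERK-responsive targets, chosen outside the 10 inhibitors, 5 were lower and 5 higher with a median of -0.05. Again 0 were called by any of limma, edgeR and DESeq2 and 0 had an unadjusted limma p under 0.05. Dusp4 stood at 0.17, Phlda1 at 0.12 and Etv1 at -0.14. Spry1, Egr1 and Fos, all lower, were placed in other lists, so this median does not cover every gene that responds to ERK. Of 12 factors that switch on immediate early genes, 7 were lower and 5 higher with a median of -0.04. Limma and edgeR called 0 and DESeq2 called 1, Elk3, which was also the 1 gene with an unadjusted limma p under 0.05. Elk3, an ETS factor of the serum response, had from 36.5 to 54.1 normalized reads in the wildtype group and from 18.0 to 30.5 in the NPC1-deficient group, a log2 fold change of -1.01 (SE 0.22, limma adjusted p = 0.0962), and an adjusted p of 0.0194 with DESeq2. Without wildtype 1 it passed with limma as well (adjusted p = 0.0375), where 144 genes passed over all genes against 16 with all libraries. Leaving out any other single library did not make Elk3 pass with limma. Elk1 stood at 0.14 and Rel at -0.47.

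Of 11 other rapidly induced inhibitors, 8 were lower and 3 higher with a median log2 fold change of -0.12. The 3 tools called 0 of them, and 2 had an unadjusted limma p under 0.05. Nfkbia, the NF-kB inhibitor, had 407, 422, 414 and 451 normalized reads in wildtype libraries and 365, 338, 355 and 341 in the NPC1-deficient group, without overlap, and a log2 fold change of -0.27 (SE 0.08, limma adjusted p = 0.208). Nfkbiz, an inducible member of that family, had 46.7, 75.7, 138 and 187 in the wildtype group and 77.1, 59.0, 28.3 and 27.9 in the NPC1-deficient group. Its difference was 0.18 in libraries 1 and 2 but -2.48 in libraries 3 and 4, and the test of that difference passed (limma adjusted p = 0.0301), while 0 genes passed it without NPC1-deficient 3 or 4. Cited2, a transcriptional coregulator, had a log2 fold change of -0.14. Of 15 immediate early transcription factors, 14 were lower and 1 higher with a median of -0.50. Limma and edgeR called 1 of them and DESeq2 called 6. The nuclear receptor gene Nr4a1 passed at -0.94 (SE 0.14, limma adjusted p = 0.0312), but not without wildtype 2 or NPC1-deficient 1, 2 or 3 (limma adjusted p from 0.0513 to 0.113). Egr1 stood at -0.52 and Fos at -0.34, both without overlap of the groups and with limma adjusted p values of 0.0679 and 0.0773. DESeq2 called both (adjusted p = 8.3e-05 and 0.00106), and so did limma with the library set as a term (adjusted p = 0.0114 and 0.0356). These 15 were known to be lower from earlier results of the same data.

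**Figure D4:**
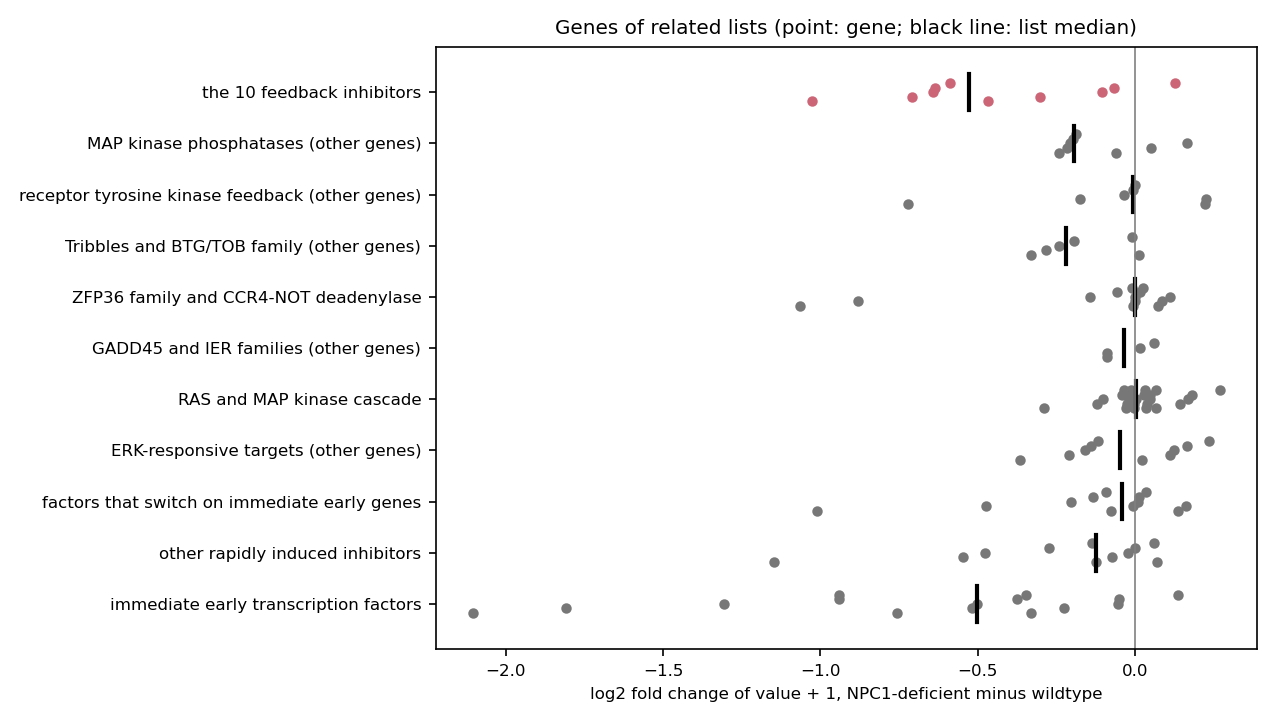
Log2 fold change of value + 1, NPC1-deficient minus wildtype (horizontal axis), of each tested gene of the 10 feedback inhibitors and of 10 related lists (rows), with the list median as a black line. The median of the 10 inhibitors (-0.53) includes Btg2 and Trib1, picked for lower values, and is -0.38 without them; that of the immediate early transcription factors, known to be lower from earlier results of these data, is -0.50, and those of the RAS and MAP kinase cascade (0.0042) and of the ZFP36 and CCR4-NOT list (0.0001) lie near 0.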

How the data were processed

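Total RNA was made into libraries with Illumina's unstranded TruSeq RNA preparation, per the labels' protocols. The submitters' processing notes list mm10, CASAVA 1.8.2, HTSeq 0.5.4p3 and DESeq2 1.0.19 and give no roles. For the aligner and the annotation, nothing is given in the sources used here. In the deposited table each value is a normalized signal, a read count divided by 1 size factor per library, as the deposited values show: all 199536 values (100%) were whole multiples of their library's step within 1e-06 of a read. Intervals from counting cover counting error only.

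Genes with a mean of at least 10 were tested (15386, with 9556 removed) as log2(value + 1), which understates changes of low genes. The genotypes were compared by limma 3.58.1 (R 4.3.3) with its intensity trend and Benjamini-Hochberg adjustment at 0.05. The difference of the genotype effect between libraries 1 and 2 and libraries 3 and 4, which a characteristics field separates, was tested as an interaction in the same way. EdgeR 4.0.16 and DESeq2 1.42.0 were run on recovered reads as alternatives, beside pseudocounts of 0.5 and 5, no minimum and a minimum of 50, quantile scaling, a replicate block, a term for the library set, either set alone, and leaving out each library. On data simulated for the genotype comparison over 15386 genes, the limma fit recovered 62% of genes changed by 0.35, 72% at 0.5, 90% at 1 and 96% at 2 on the log2 scale, with 11 unchanged genes among 171 calls. For the interaction these shares were 12%, 26%, 56% and 92%, with 5 unchanged genes among 98 calls. The simulated spread came from a fit that included the library set and its interaction, and no set difference was drawn. The genotype fit has no set term, so its shares may be too high for the real libraries.

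The genes, lists and tests were chosen with earlier results of these data known. Named genes were the 10, Npc1, up to 3 genes of each list with the smallest limma p, and the 3 profiles nearest to Btg2 and to Trib1. Where a symbol had 2 rows, the identifier with that name in GENCODE M21 was used. Lengths and positions came from GENCODE M21, in which 24471 identifiers (98.1%) were found. Of the list genes, Spry3, Cnot9, Mrtfa, Mrtfb and Cdh5 were not matched by those symbols.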

Additional observations from a re-analysis of the deposited data

Results flagged for a closer look

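Npc1 stood at 139.8 normalized reads in NPC1-deficient 1 and between 66.1 and 70.05 in the other 3 NPC1-deficient libraries, so that library lay far from the rest of its group. A further 3 named genes had 1 library far from its group: Nr4a1 at 1586 in wildtype 3 against 989 to 1053 in the others, Trib3 at 91.2 in wildtype 1 against 71.8 to 74.7, and Mbd6 at 206.5 in NPC1-deficient 4 against 168.8 to 174.1. Of 90 groups looked at, 4 were marked in this way, and chance marks about 1 in 20. None of the 10 feedback inhibitors was among them.

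Spry4 differed in direction between libraries 1 and 2 and libraries 3 and 4, by a log2 value of -0.64 with an SE of 0.23 (limma adjusted p = 0.263), and Etv1 did so by -0.56 (SE 0.17, limma adjusted p = 0.216). In both, the 2 sets moved in opposite directions without overlap, which 10.3% of all genes tested did. Nfkbiz differed between the sets by -2.65 (SE 0.39, limma adjusted p = 0.0301), which passed over all genes. Without NPC1-deficient 3 or NPC1-deficient 4, and with no minimum mean, 0 genes passed that test, Nfkbiz included.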

How the results depend on the processing

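The log2 fold changes of Btg2 (-0.75 to -0.53), Trib1 (-0.78 to -0.64), Dusp1 (-0.39 to -0.22), Dusp6 (-0.69 to -0.48), Ier2 (-0.62 to -0.31), Zfp36 (-1.60 to -0.45), Gadd45b (-0.97 to -0.32) and Ier3 (-0.12 to -0.02) kept their sign under all 19 alternatives. With libraries 3 and 4 alone Spry2 stood at 0.000266, Spry4 at -0.192, Dusp16 at 0.0426, Ier5l at -0.114 and Map3k1 at 0.0312, and with libraries 1 and 2 alone Etv1 stood at 0.14 and Nfkbiz at 0.18. Ier5l ran from -0.0117 (without wildtype 2) to 0.155 when single libraries were left out. Of the 8 genes chosen by function, 0 passed with limma, 3 with DESeq2 and 3 with the library set as a term (Dusp1, Dusp6 and Ier2 both times), 1 within libraries 1 and 2 (Dusp6), 4 within libraries 3 and 4 (Dusp1, Gadd45b, Ier2 and Zfp36) and 0 to 2 when single libraries were left out. Over all genes 16 were called, 10 with a minimum mean of 50, 246 with DESeq2, 99 with the library set as a term, 57 within libraries 1 and 2, 335 within libraries 3 and 4, and from 2 (without NPC1-deficient 3) to 144 (without wildtype 1) when single libraries were left out. Of the list genes 1 was called, 10 with DESeq2, 5 with the library set as a term, 13 within libraries 3 and 4, and 0 to 6 without single libraries. With the replicate number as a block 34 genes were called over all genes, 2 of the list genes and 0 of the 8. The numbers do not pair the libraries: same-numbered libraries correlated at -0.0169, -0.0325, -0.0229 and -0.0659 across genes in their deviations from the group means.

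For the difference between libraries 3 and 4 and libraries 1 and 2, 12 genes were called, 0 with no minimum, 195 with DESeq2, and 0 to 117 without single libraries. Of the 10 genes 0 to 1 passed without single libraries, the 1 being Spry4 without NPC1-deficient 2. When single libraries were left out, this difference ran from -0.14 to 0.211 in Trib1, from -0.148 to 0.164 in Ier3 and from -0.181 to 0.184 in Dusp6. With edgeR Ier3 stood at -0.0060 and Dusp6 at -0.0025, and with DESeq2 Ier3 at -0.0019. The median log2 fold change of the 8 genes ran from -0.43 to -0.34 and that of Npc1 from -3.51 to -3.16 without single libraries. The cause of these moves was not tested. Depth limits Gadd45b most, with 49 to 125 reads a library.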
